A study of Mus musculus with 79 samples.

Results

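Acute phase and alarmin genes were examined across the cells and tissue of a repaired nerve. The group held 8 genes of the 23361 in the deposited tables: Saa3, Lcn2, Serpina3n, Hp, Orm1, S100a8, S100a9 and Ptx3. They were taken by symbol from the count tables of macrophages, Schwann cells (SC) and distal stump. Serpina3n was included because its levels in delayed and immediate SC libraries differed in opposite directions on the 2 days, so those differences are given here as a description, without a test. The other 7 genes were also chosen with results of these samples known.

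In mice, the common peroneal nerve was grafted to the tibial nerve either at once (immediate) or after an 8 week delay (delayed). Animals expressed GFP under the human S100β promoter. Macrophages and SC were sorted from the regenerative bridge 5 and 14 days after repair, and the distal stump was taken at day 5 only, so it has no later time point. The labels name the bridge as the source of the stump libraries too, whereas the methods place the stump in the tibial nerve. Males and females were in every group. Macrophage libraries numbered 9 delayed and 8 immediate at day 5, and 7 and 8 at day 14. SC libraries numbered 9 and 7 at day 5, and 7 and 8 at day 14. Stump libraries numbered 9 and 7. These 79 libraries came from 32 animals, of which 31 gave both sorted cell types. The total count per library ran from 14928748 to 28499405 in macrophages, from 11614940 to 30796825 in SC and from 3898778 to 9212710 in the stump. A gene with no count in the smallest library could have had up to 0.201 CPM (a gene's count scaled to the library's total count) in macrophages, 0.258 CPM in SC and 0.769 CPM in the stump, by counting error alone. Sorted cells were sequenced from amplified cDNA of few cells and the stump from rRNA-depleted RNA, so the stump was not tested against sorted cells. Of the SC libraries, immediate day 14 replicates 3 and 5 stood apart for neutrophil granule genes, and values without them are given where they moved a result.

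Acute phase proteins are secreted during inflammation. The liver is their best known source, but Saa3, a serum amyloid A, is made mostly outside it, by macrophages and fat cells among others. Hp (haptoglobin) binds free hemoglobin, Orm1 (orosomucoid) is a carrier protein, Serpina3n inhibits serine proteases, Ptx3 is a long pentraxin of innate immunity, and Lcn2 (lipocalin 2) sequesters bacterial siderophores. S100a8 and S100a9 form calprotectin, an alarmin that neutrophils hold in large amounts and that signals through Tlr4. Interleukin 6, interleukin 1 and related cytokines induce many of these genes through Stat3, C/EBP and NF-κB factors. In the GENCODE annotation of GRCm38, S100a8 (chr3:90668978-90670035, plus strand) and S100a9 (chr3:90692632-90695721, minus strand) are neighbours on chromosome 3, which also holds Ptx3 (chr3:66219910-66225805). Lcn2 lies at chr2:32384633-32388252, Orm1 at chr4:63344560-63348163, Saa3 at chr7:46711998-46715700, Hp at chr8:109575128-109579172 and Serpina3n at chr12:104406729-104414329.

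The labels were checked against marker genes. Emr1, the gene of F4/80, was at least 850.3 CPM in every macrophage library and at most 590.6 CPM in any SC library. Sox10, a transcription factor of SC, had a median of 10.1 CPM in delayed and 72.4 CPM in immediate SC libraries of day 5, and of 126 and 130.1 CPM at day 14, and was at 0 in 1 delayed library of day 5. Ccr7, a gene of migratory dendritic cells, was between 2413 and 9817 CPM in the SC libraries, and the summed level of 10 dendritic cell markers in SC libraries, between 20196 and 43301 CPM, was above that of 13 SC markers, between 222.4 and 5140 CPM. The same SC markers summed to between 421.9 and 952 CPM in macrophage libraries, where Sox10 was at most 1.75 CPM, so part of that sum is not particular to SC. The fraction labelled SC was therefore not SC alone, and its members' values are those of a mixture. In bulk libraries, fewer cells of a type and less RNA per cell cannot be told apart.

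Saa3 was the most abundant member in macrophages, per exon length as well as in counts, and its libraries were widely spread. Immediate macrophage libraries of day 5 ranged from 224.3 to 3674 CPM, with a median of 1356 CPM. Delayed libraries of day 5 ranged from 82.2 to 2098 CPM, with a median of 1016 CPM. At day 14 the range was 43.1 to 1345 CPM after immediate repair (median 145 CPM) and 3.93 to 693 CPM after delayed repair (median 91.8 CPM). The days overlapped, but all 8 immediate and all 7 delayed libraries of day 14 lay below the median of day 5 in their own repair group. Across every macrophage group, replicate 1 had the highest value of Saa3, at 3674, 2098, 1345 and 693 CPM.

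**Figure D1:**
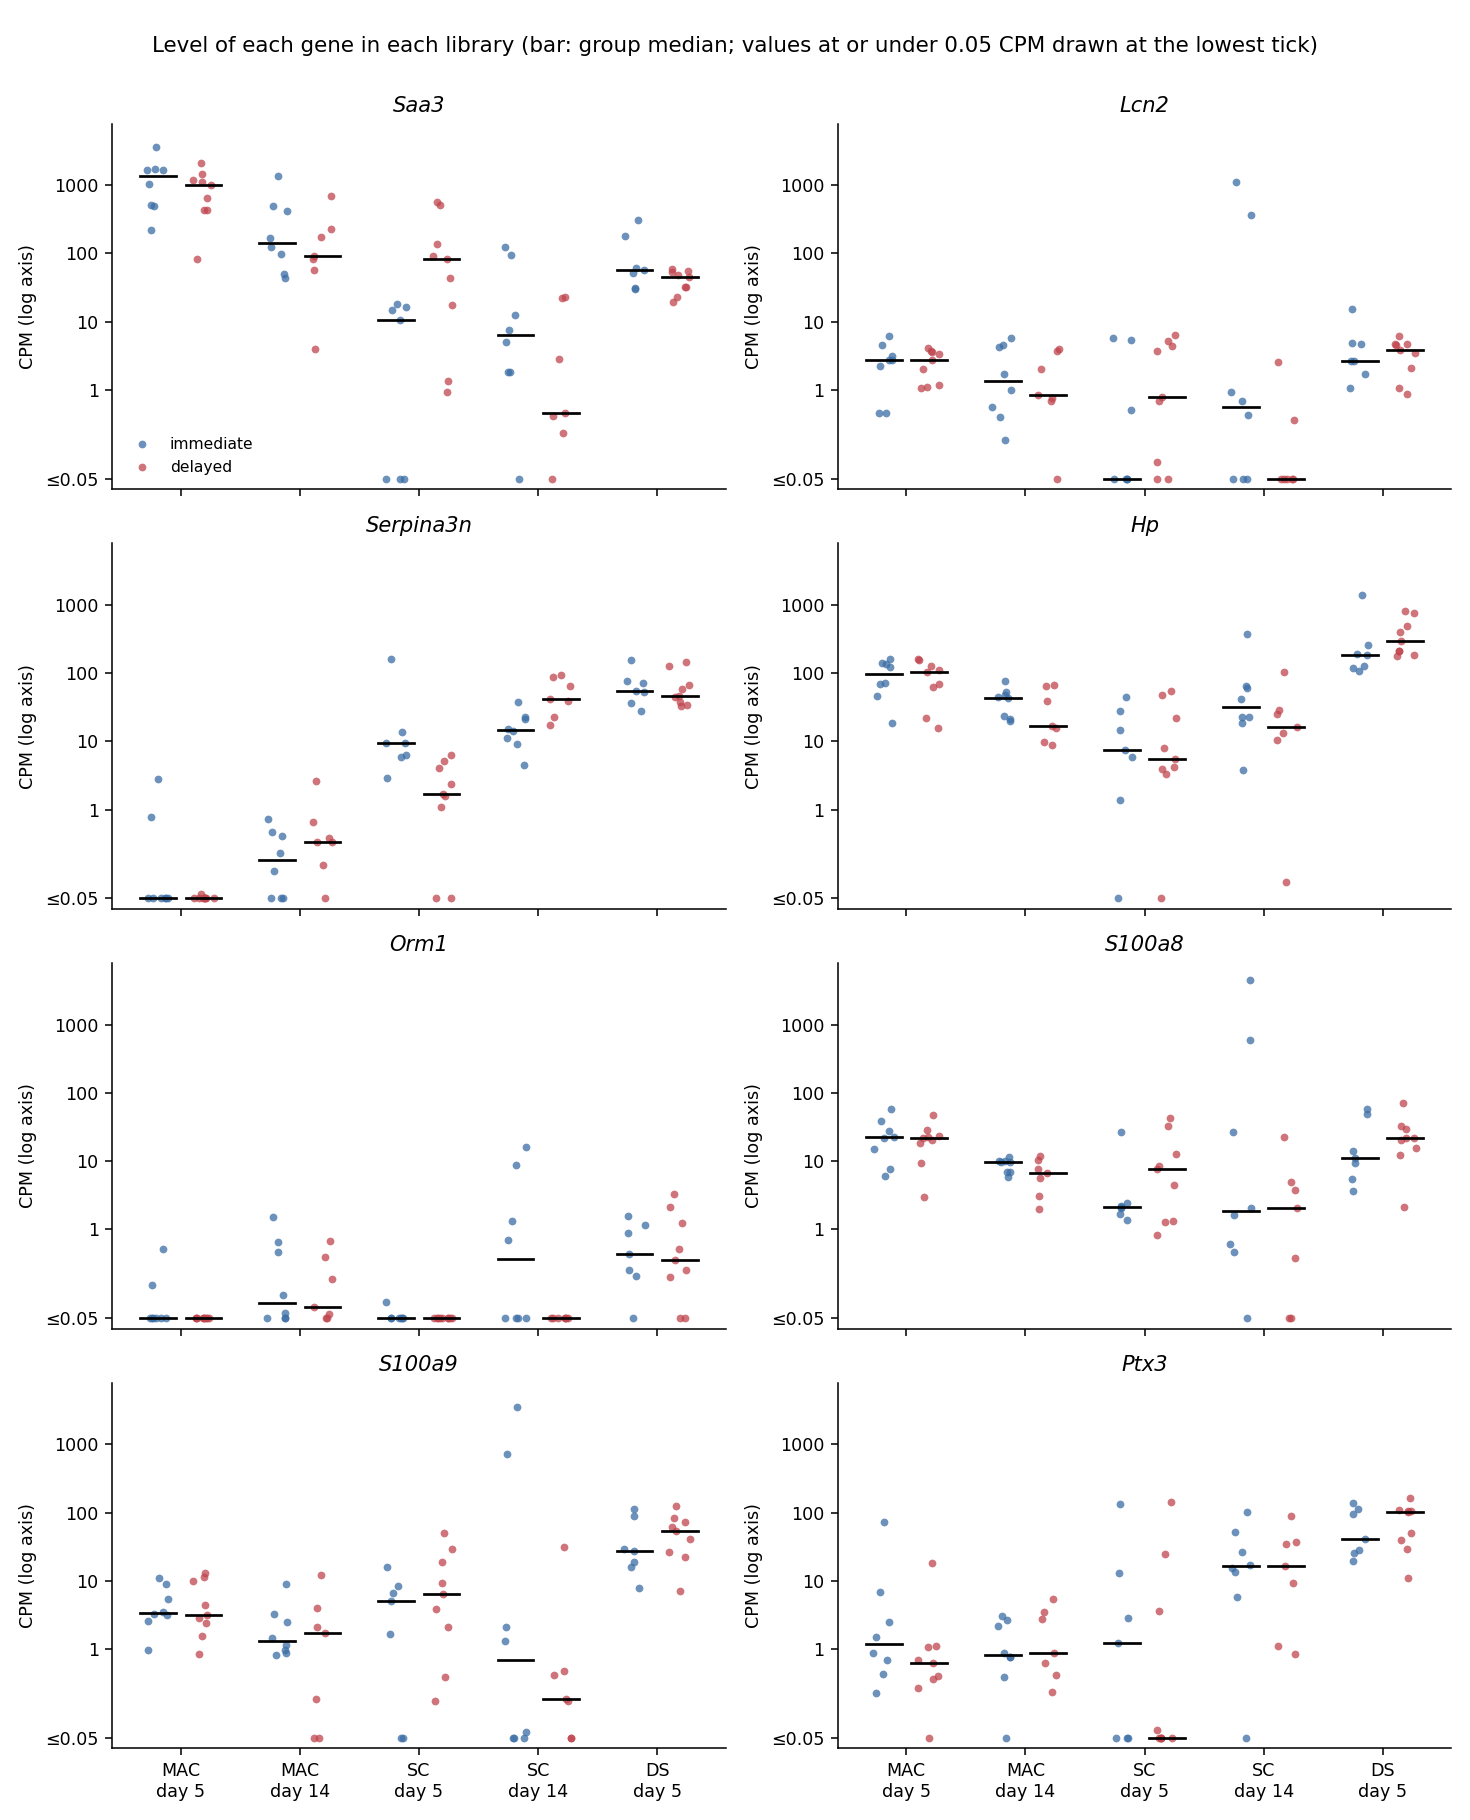
Level of each gene in CPM in each library, on a log axis, by cell type (MAC, macrophages; SC, Schwann cells; DS, distal stump), day and repair group, with a bar at the group median. Saa3 has medians of 1356 and 1016 CPM in macrophages of day 5, Serpina3n is near 0 in macrophages, and 2 immediate SC libraries of day 14 stand far above the others for S100a8, S100a9 and Lcn2.

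Between day 5 and day 14, S100a8 fell in macrophages of both repair groups and Hp fell in those of the immediate group, while Saa3 had lower values on the later day without passing the test. In each repair group 3 members, chosen by their levels in these libraries, passed the filter on low counts (5 CPM or more in 6 or more libraries of the comparison). After immediate repair, 2 of these 3 were called at a Benjamini-Hochberg adjusted p under 0.05 in edgeR's quasi-likelihood test, against 11.3% of 8507 genes tested. S100a8 fell by 1.68 on the log2 scale (SE 0.38, adjusted p = 0.00756) and Hp fell by 1.38 (SE 0.39, adjusted p = 0.0287), whereas Saa3 differed by -2.16 (SE 0.77, adjusted p = 0.0836) and was not called. After delayed repair, S100a8 alone was called, against 6.33% of 8529 genes. It fell by 1.77 (SE 0.46, adjusted p = 0.0277, edgeR), while Saa3 differed by -2.37 (SE 0.81, adjusted p = 0.0945) and Hp by -1.62 (SE 0.56, adjusted p = 0.098).

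The levels of S100a8 and Hp in macrophages show the same shape. S100a8 ranged from 6.13 to 57.5 CPM (median 22.2 CPM) at day 5 after immediate repair and from 5.91 to 11.6 CPM (median 9.69 CPM) at day 14. After delayed repair it ranged from 3.02 to 46.7 CPM (median 22.1 CPM) and then from 2.002 to 11.98 CPM (median 6.59 CPM). The groups overlapped at their low ends, and every library of day 14 lay below the day 5 median of its repair group. Hp ranged from 18.9 to 162 CPM (median 97.0 CPM) at day 5 and from 19.7 to 76.4 CPM (median 43.9 CPM) at day 14 after immediate repair. After delayed repair it ranged from 15.8 to 164 CPM (median 105 CPM) and from 8.96 to 67.2 CPM (median 17.0 CPM). The call of Hp after immediate repair was lost when any 1 of day 5 replicates 1, 2 and 3 or day 14 replicates 2 and 3 was left out, with adjusted p up to 0.0551, and with limma-voom (adjusted p = 0.0532) or no filter (adjusted p = 0.0518). It was also lost with the replicate number as a block (-1.27, adjusted p = 0.143). The call of S100a8 held without each library in turn after immediate repair, but not after delayed repair, where leaving out 3 of the 16 libraries, one at a time, took it to an adjusted p of up to 0.0631, and limma-voom gave 0.0864, calling Saa3 alone of the members (-2.74, adjusted p = 0.0246). DESeq2 called Hp after delayed repair as well (-1.61, adjusted p = 0.0365). Saa3 was called by DESeq2 in both repair groups (adjusted p = 0.0415 and 0.0162) and, in edgeR, without day 14 replicate 1, which held the highest value of that day, at -2.94 after immediate repair (adjusted p = 0.0176) and at -3.26 after delayed repair (adjusted p = 0.0221). With the replicate number as a block in edgeR, Saa3 was called in both repair groups (adjusted p = 0.0436 and 0.0224).

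These 3 genes varied together among macrophage libraries once the group means were removed. Pearson's r of the log2 residuals over 32 libraries was 0.79 for Hp and S100a8, 0.73 for S100a8 and Saa3, and 0.70 for Hp and Saa3. These values are descriptions, since genes of one library share its depth and cell makeup. The genes most like Saa3 by this measure, of 8337 genes, were Dram1 at 0.86, Sod2 (mitochondrial superoxide dismutase) at 0.85 and Pisd at 0.82. For S100a8 they were Ncf4 (a subunit of the phagocyte oxidase) at 0.85, Sod2 at 0.83 and Prdx5 at 0.83, and for Hp they were Rab32 at 0.86, Plscr1 at 0.81 and Mmp14 at 0.80. The summed level of neutrophil markers in macrophage libraries was 293.5 to 556.2 CPM at day 5 and 96.9 to 324.4 CPM at day 14. Of its genes, Ngp (neutrophilic granule protein) was at most 0.303 CPM in any macrophage library, while Mmp8 (neutrophil collagenase) had medians of 40.1 CPM (immediate) and 32.7 CPM (delayed) at day 5 and of 4.06 and 4.55 CPM at day 14. Residuals had r = 0.57 for Saa3, 0.32 for Hp and 0.24 for S100a8 with the summed neutrophil markers. Other lists gave negative values in the same order of genes: -0.46, -0.20 and -0.50 with dendritic cell markers and -0.51, -0.35 and -0.42 with fibroblast markers. With T and B cell markers, whose sum was at most 15.8 CPM, r was -0.60, -0.55 and -0.67. Of 18 neutrophil markers, 3 of 5 tested fell after immediate repair and 3 of 4 after delayed repair, against 5.98% and 3.07% of all genes. The summed level of 10 dendritic cell markers in macrophage libraries was 1036 to 4708 CPM at day 5 and 6857 to 17839 CPM at day 14, without overlap, and 3 of the 5 tested rose in each repair group. Of 9 monocyte markers, 8 were tested, of which 4 fell after immediate and 2 after delayed repair. The part of these cell types in the differences of S100a8, Hp and Saa3 between days was not tested.

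The genes that surround this group in the same pathways were also compared between days. Of 48 other acute phase genes, 9 were tested in macrophages after immediate repair, where 2 rose and 2 fell, against 5.29% and 5.98% of all genes. The metal-binding metallothioneins Mt1 (-1.38, SE 0.24, adjusted p = 0.000993) and Mt2 (-1.98, SE 0.32, adjusted p = 0.000721) fell, and Cp, the copper carrier ceruloplasmin (1.45, SE 0.34, adjusted p = 0.00843), and Serpina3g, a relative of Serpina3n (2.04, SE 0.53, adjusted p = 0.0198), rose. After delayed repair the same 4 genes were called in the same directions and Tnfaip6 fell as well (-1.61, SE 0.35, adjusted p = 0.008, edgeR). Of 45 inducing cytokines and regulators, 37 were tested, and 17 fell and 1 rose after immediate repair, against 5.98% of all genes that fell. The cytokines Il10 (-1.95, SE 0.22, adjusted p = 1.7e-05), Osm (-1.29, SE 0.16, adjusted p = 2.82e-05), Il1b (-1.33, SE 0.17, adjusted p = 6.47e-05) and Lif (-3.02, SE 0.40, adjusted p = 0.000117) fell, and Cebpd, a C/EBP factor, rose by 0.87 (SE 0.17, adjusted p = 0.0027). After delayed repair 7 fell and 0 rose, against 3.07% and 3.26% of all genes, among them Lif (-1.81, SE 0.37, adjusted p = 0.00496) and Nfkbia, the inhibitor of NF-κB (-0.67, SE 0.11, adjusted p = 0.000828). Of 29 receptors and binding partners, 22 were tested, of which 7 fell and 1 rose after immediate repair, with Itgam, a subunit of the complement receptor Mac-1, at -0.82 (SE 0.09, adjusted p = 1.97e-05) and Cd14 at -0.71 (SE 0.14, adjusted p = 0.00232). After delayed repair 3 fell and 0 rose. Of 30 other S100 and alarmin genes, 22 were tested after immediate repair, and 3 fell and 1 rose, with Il1a at -1.58 (SE 0.28, adjusted p = 0.00143, edgeR). In the test of the difference between repair groups (repair by day), 1 of the 37 inducers and regulators was called, against 0.0223% of all genes: Osm, whose change from day 5 to day 14 was higher after delayed repair by 1.27 (SE 0.24, adjusted p = 0.0297, edgeR), a call lost with library size scaling (adjusted p = 0.0960) and with the replicate block (adjusted p = 0.0961). None of the 13 acute phase, 22 receptor and 22 alarmin genes tested was called in it.

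**Figure D2:**
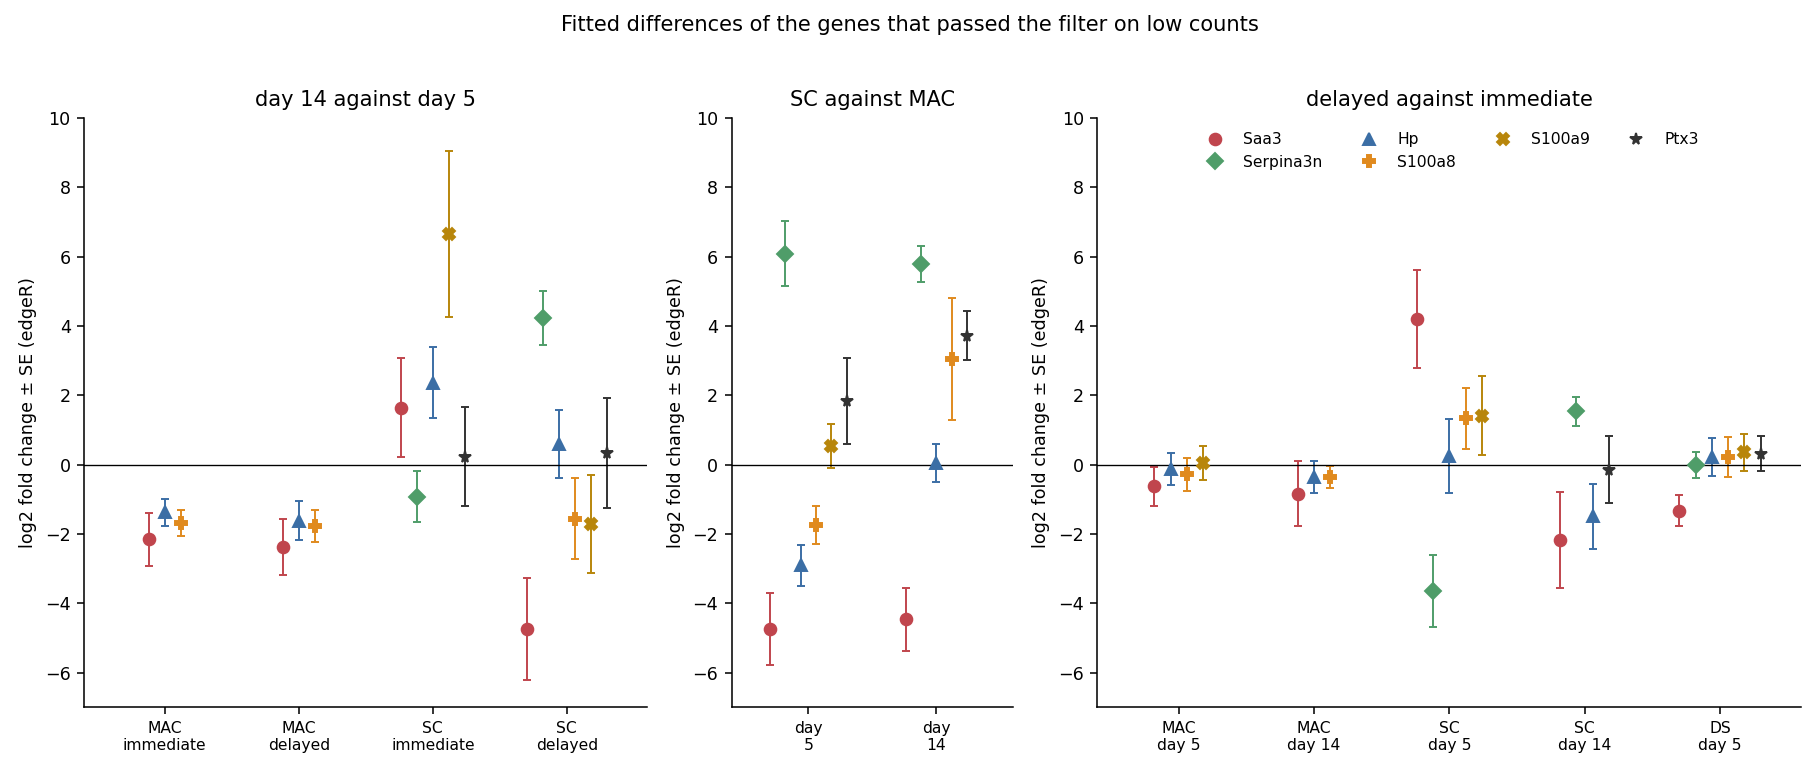
Fitted log2 fold changes with their standard errors (edgeR) for the members that passed the filter, for day 14 against day 5, SC against macrophages, and delayed against immediate repair. In macrophages Saa3, Hp and S100a8 lie below 0 for day 14 in both repair groups, and Serpina3n lies near 6 above 0 for SC against macrophages on both days.

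Macrophages and SC sorted from the same animals differed in which member they held. Saa3 was higher in macrophages in 16 of 16 animals at day 5 and in 14 of 15 at day 14, and Serpina3n was higher in SC in 14 of 16 and in 15 of 15, with the other 2 animals at 0 in both. At day 5, 4 of 6 members tested were called, against 65.3% of 10087 genes, and at day 14, 3 of 5, against 64.7% of 10596 genes, so a call by itself was common in this comparison. Serpina3n reached 5 CPM in 0 of 32 macrophage libraries, and at day 14 Ptx3 reached it in 12 of 15 SC but 1 of 15 macrophage libraries, so these genes passed the filter through SC, where they are high, and their calls and these counts are no independent support. Saa3 was lower in SC than in macrophages, with a log2 fold change of -4.73 at day 5 (SE 1.04, adjusted p = 0.000159) and of -4.47 at day 14 (SE 0.92, adjusted p = 8.52e-05). Serpina3n was higher in SC by 6.09 at day 5 (SE 0.93, adjusted p = 7.12e-07) and by 5.80 at day 14 (SE 0.53, adjusted p = 4.05e-11). Only 2 of 17 macrophage libraries of day 5 were above the level of 3 counts for Serpina3n, so the fitted size rests on values near 0 in macrophages.

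Hp and S100a8 were called between the cell types at day 5 and not at day 14. Hp was lower in SC at day 5 (log2 fold change -2.91, SE 0.59, adjusted p = 5.7e-05; higher in macrophages in 15 of 16 animals), whereas at day 14 the difference was 0.047 (SE 0.54, adjusted p = 0.945; higher in macrophages in 8 of 15), or -0.74 without the 2 SC libraries described next. S100a8 was lower in SC at day 5 (-1.74, SE 0.54, adjusted p = 0.00533) and differed by 3.04 at day 14 (SE 1.76, adjusted p = 0.132), a value that turned to -0.96 without these libraries. Ptx3 was higher in SC by 3.72 at day 14 (SE 0.70, adjusted p = 2.78e-05; 13 of 15 animals), a call that, as said above, is no independent support. At day 5 the difference was 1.84 (SE 1.25, adjusted p = 0.2), which became 3.05 and was called without immediate animal 4 (adjusted p = 0.0240), and was -1.48 with the animal as a block. On that day Ptx3 was higher in macrophages in 9 of 16 animals and in SC in 6. Its medians were 0.688 CPM in macrophages and 0.0325 CPM in SC, where the highest libraries were at 141 and 135 CPM. S100a9 differed by 0.53 at day 5 (SE 0.64, adjusted p = 0.479). Whether the cell type difference itself changed between days was not tested.

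**Figure D3:**
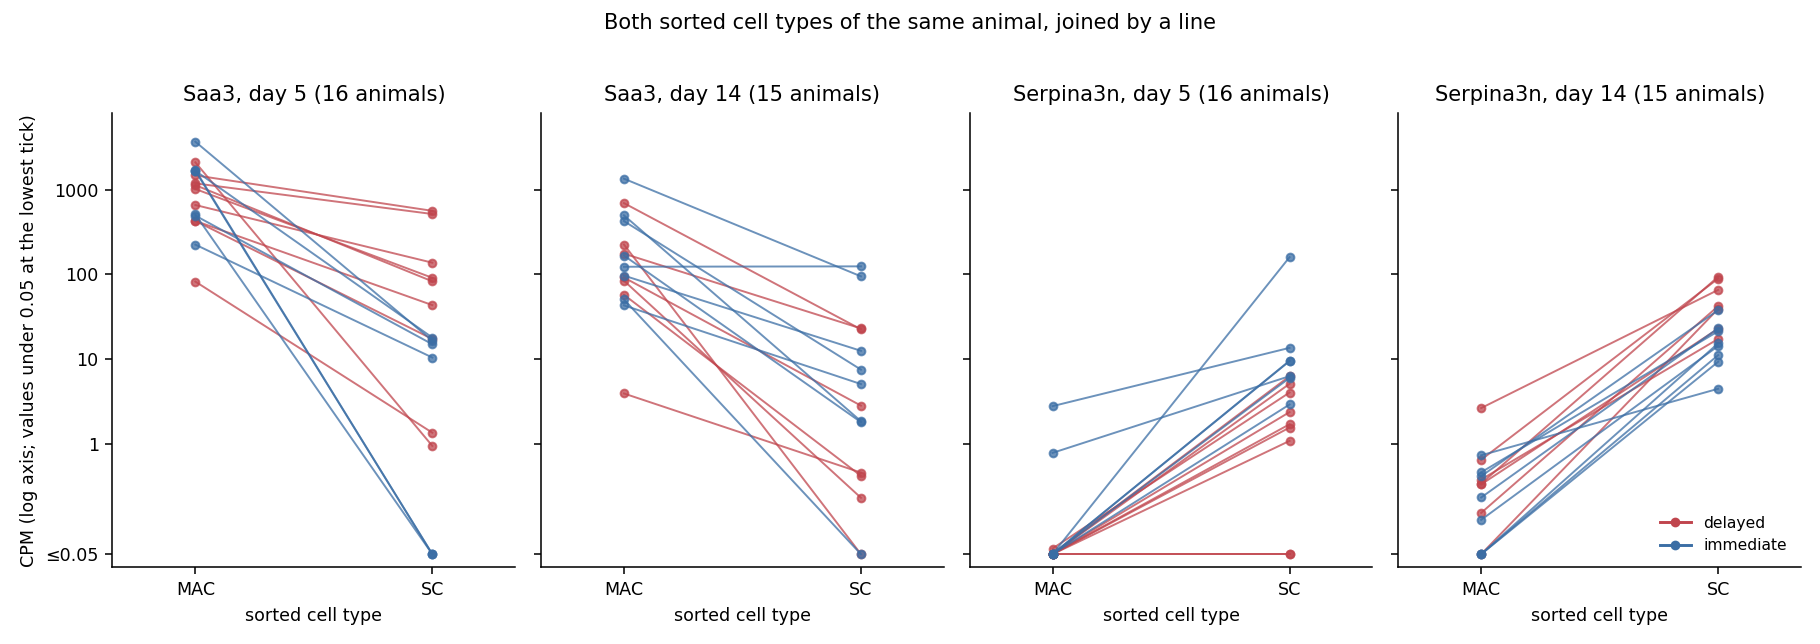
Saa3 and Serpina3n in macrophages (MAC) and Schwann cells (SC) of the same animal, in CPM on a log axis, with a line for each animal and colour for the repair group. Saa3 lines fall from macrophages to SC in 16 of 16 animals at day 5 and Serpina3n lines rise in 15 of 15 at day 14.

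Per exon length, the order of the members also differed between the 3 sources. RPKM was CPM divided by the exon length in kilobases, taken as the union of exons of a gene's protein-coding transcripts. Its median put Saa3 first in all 4 macrophage groups, with Hp and S100a8 next. In SC of day 5, Saa3 led after delayed repair (31.7 RPKM), before S100a8 (15.9) and S100a9 (12.2), and S100a9 led after immediate repair (9.62 RPKM), before Hp (5.63) and Serpina3n (4.59). In SC of day 14 the first were Serpina3n (20.4 RPKM), Hp (12.1) and Ptx3 (8.68) after delayed repair and Hp (24.1 RPKM), Ptx3 (8.53) and Serpina3n (7.19) after immediate repair. In the stump, Hp led in both groups (218 and 135 RPKM), with S100a9 next (104 and 51.6 RPKM), and the third was Ptx3 after delayed (54.3 RPKM) and Serpina3n after immediate repair (27.0 RPKM). Ranges of neighbours in these orders were not compared by a test. The ratio of S100a8 to S100a9 per length had a median of 6.16 in 31 macrophage libraries, 1.07 in 25 SC libraries and 0.524 in 16 stump libraries, among libraries with any S100a9.

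In SC, the 2 calprotectin genes and Lcn2 came mostly from 2 libraries. S100a8 was at 4513 CPM in immediate day 14 replicate 3 and at 599 CPM in replicate 5, and at most 42.5 CPM in the other 29 SC libraries. S100a9 was at 3495 and 730 CPM in these libraries and at most 49.5 CPM in the others. Lcn2 was at 1120 and 365 CPM and at most 6.46 CPM in the others, and Orm1 at 16.3 and 8.85 CPM and at most 1.34 CPM. The 2 libraries held 94.99% of all SC counts of S100a8, 94.7% of S100a9, 96.9% of Lcn2 and 91.1% of Orm1, but 36.8% of Hp, 8.05% of Ptx3, 5.76% of Saa3 and 4.19% of Serpina3n.

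The same libraries stood apart for genes of neutrophil granules. Ngp was at 7473 and 2907 CPM there and at most 0.501 CPM in the other 29. Camp, the cathelicidin, was at 1991 and 581 CPM and at most 1.01 CPM in the others, and Ltf, lactoferrin, at 2927 and 850 CPM and at most 1.42 CPM. Elane, neutrophil elastase, was at 23.5 CPM in replicate 3 and at 0 in replicate 5. The sum of 18 neutrophil markers was 12665 and 4373 CPM in these libraries and 9.59 to 567 CPM in the other SC libraries. The methods state that Ly6G-positive cells were gated out of the sort. The part of neutrophil RNA in the levels of these members was not tested. Over 31 SC libraries the residuals of Lcn2 were most like S100a9 (r = 0.91) and Ngp (r = 0.91), and those of S100a8 and S100a9 were most like each other (r = 0.92, and 0.76 over 29 libraries without the 2).

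**Figure D4:**
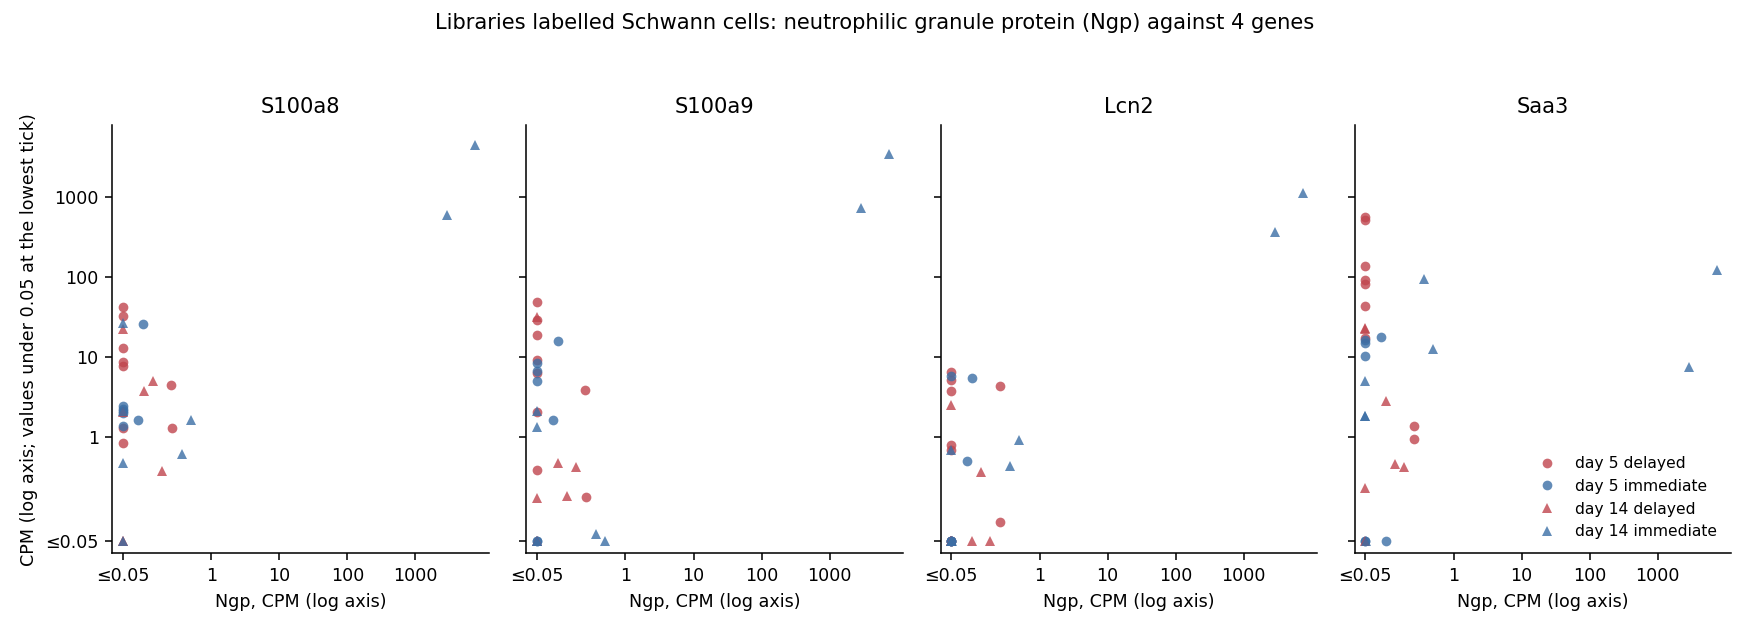
Ngp, a neutrophil granule gene, on the x axis against S100a8, S100a9, Lcn2 and Saa3 on the y axis, in CPM on log axes, in each of the libraries labelled Schwann cells. The 2 libraries at 7473 and 2907 CPM of Ngp are the highest for S100a8, S100a9 and Lcn2, but not for Saa3.

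The RefSeq start sites of S100a8 and S100a9, both on chromosome 3, and of Lcn2, on chromosome 2, are shown because these members were high together in the same 2 libraries. Each window runs from 250 bases before to 50 after the start on the gene's strand (GRCm38.p6). Capitals mark the only match found, to the C/EBP letters TTGCNNAA on either strand, and it does not overlap another match. For S100a8 the window is chr3:90668821-90669120, plus strand; for S100a9 it is chr3:90695672-90695971, minus strand; for Lcn2 it is chr2:32387690-32387989, minus strand.
S100a8: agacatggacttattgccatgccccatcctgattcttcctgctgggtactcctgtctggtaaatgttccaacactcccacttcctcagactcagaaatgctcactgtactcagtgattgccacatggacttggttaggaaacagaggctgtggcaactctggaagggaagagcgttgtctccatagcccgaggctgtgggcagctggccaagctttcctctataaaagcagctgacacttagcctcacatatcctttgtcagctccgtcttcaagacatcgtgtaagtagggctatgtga
S100a9: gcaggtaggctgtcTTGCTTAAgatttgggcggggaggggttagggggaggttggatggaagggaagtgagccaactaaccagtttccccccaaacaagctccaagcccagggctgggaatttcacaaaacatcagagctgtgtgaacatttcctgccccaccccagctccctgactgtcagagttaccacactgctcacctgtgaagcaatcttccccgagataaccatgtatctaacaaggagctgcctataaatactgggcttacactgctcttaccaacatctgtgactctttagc
Lcn2: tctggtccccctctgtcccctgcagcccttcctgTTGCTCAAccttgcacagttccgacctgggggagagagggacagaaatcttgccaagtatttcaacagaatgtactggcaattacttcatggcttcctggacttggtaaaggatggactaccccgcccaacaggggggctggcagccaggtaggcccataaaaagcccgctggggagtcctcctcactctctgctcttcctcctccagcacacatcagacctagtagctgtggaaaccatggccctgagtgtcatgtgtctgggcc
S100a9 holds the letters at positions -236 to -229 and Lcn2 at -216 to -209, and S100a8 has no match in this window. The same letters occur in 10.8% of 32851 windows of this length.

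The windows of Saa3 and Ptx3 also hold the C/EBP letters. Saa3, shown because it was the leading member in macrophages, has them at -99 to -92 on the opposite strand (window chr7:46715627-46715926, minus strand).
Saa3: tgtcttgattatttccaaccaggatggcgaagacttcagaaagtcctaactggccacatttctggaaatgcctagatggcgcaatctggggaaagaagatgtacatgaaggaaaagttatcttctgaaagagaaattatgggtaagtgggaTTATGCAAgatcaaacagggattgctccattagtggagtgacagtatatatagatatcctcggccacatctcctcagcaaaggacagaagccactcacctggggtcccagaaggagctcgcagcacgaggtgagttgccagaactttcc
Ptx3 has them at -57 to -50 and is the only one of the 6 windows with a match to the NF-κB consensus, 2 overlapping matches from -1 to 10, a motif present in 8.46% of windows. The STAT letters TTCNNNGAA, present in 8.30% of windows, were in none of the 6, and Serpina3n had no match to any of the 3 motifs. A match is a description of letters, not of a bound site.

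Saa3 in SC was the member with the widest difference between repair groups at day 5, and this difference was not called. Delayed SC libraries ranged from 0.947 to 561 CPM (median 82.7 CPM) and immediate ones from 0 to 18.0 CPM (median 10.4 CPM). In all, 6 of 9 delayed libraries lay above the highest immediate one. The fitted difference was 4.20 (SE 1.42, unadjusted p = 0.00878, adjusted p = 0.839, edgeR), or 3.34 with the replicate block and 6.84 with limma-voom, and no gene of 9604 was called (0%), with 504 at an unadjusted p under 0.05 and 14 called by DESeq2. In macrophages of the same day the difference was -0.63 (SE 0.57, adjusted p = 0.979), and the difference between the 2 cell types' responses was 4.87 (SE 1.44, unadjusted p = 0.0019, adjusted p = 0.523; 0.0198% of genes called). The highest delayed SC libraries, replicates 9 and 7 at 561 and 515 CPM of Saa3, also had the highest sums of 13 macrophage markers of all SC libraries, 7831 and 4892 CPM, where immediate SC libraries of day 5 had 157 to 2463 CPM. The methods state that SC were sorted as negative for the macrophage markers F4/80, CD14 and CD11b. The part of macrophage RNA in SC values of Saa3 was not tested. Among SC libraries the residuals of Saa3 were most like those of Sod2 (0.76), Irg1, the itaconate enzyme of activated macrophages (0.76), and Ptges, a prostaglandin synthase (0.73), over 31 libraries. Without the 2 libraries rich in Ngp they were most like those of Ptges (0.78), Irg1 (0.76) and Il1a (0.75), over 29.

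At day 14 the order of the SC groups for Saa3 was the other way round, with 0 to 23.0 CPM (median 0.459 CPM) after delayed and 0 to 124 CPM (median 6.30 CPM) after immediate repair. The difference was -2.17 (SE 1.39, adjusted p = 0.998; 0% of 10226 genes called, 369 at an unadjusted p under 0.05, 3 by DESeq2). The 124 CPM were those of immediate replicate 3, rich in Ngp, without which the difference was -1.32, and without replicates 3 and 5 Saa3 no longer passed the filter. From day 5 to day 14, Saa3 differed by -4.75 in delayed SC (SE 1.47, adjusted p = 0.0537; all 7 libraries of day 14 below the day 5 median) and by 1.64 in immediate SC (SE 1.42, adjusted p = 0.604), or 0.93 without the 2 libraries rich in Ngp. In delayed SC, 8.09% of 9961 genes were called between the days, and in immediate SC 3.92% of 10016, and none of the 5 and 4 members tested besides Serpina3n was called. The delayed value was called without day 5 replicate 1 or 5, with adjusted p down to 0.0362, and by DESeq2. Saa3 reached 5 CPM in 7 of 9 delayed libraries of day 5 and in 2 of 7 of day 14, so it passed the filter through day 5, where it is high, and these calls are no independent support. The interaction of repair and day in SC was -6.39 (SE 2.08, unadjusted p = 0.00442, adjusted p = 0.742), and no gene of 10923 was called (0%; 530 at an unadjusted p under 0.05). DESeq2 called 9 genes in this interaction, among them S100a8 (adjusted p = 0.0320). For Lcn2, S100a8 and S100a9 the interaction was -9.42 (SE 2.68), -8.48 (SE 2.34) and -8.36 (SE 2.70), with adjusted p of 0.711, 0.711 and 0.742 in edgeR. Without the 2 libraries rich in Ngp, Saa3 was at -5.65, S100a8 at -1.42 and S100a9 at 1.61, and Lcn2 no longer passed the filter.

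Serpina3n, chosen for its SC pattern, is described here without a test. At day 5 delayed SC libraries ranged from 0 to 6.29 CPM (median 1.70 CPM) and immediate ones from 2.92 to 159 CPM (median 9.48 CPM), and 6 of 9 delayed libraries lay below the lowest immediate one. Immediate replicate 1, at 159 CPM, stood apart from the other 6, of which the highest was 13.6 CPM. At day 14 delayed libraries ranged from 17.3 to 93.6 CPM (median 42.1 CPM) and immediate ones from 4.47 to 37.8 CPM (median 14.8 CPM), and 5 of 7 delayed libraries lay above the highest immediate one. The fitted differences were -3.64 (SE 1.04) at day 5, or -1.77 without immediate replicate 1, and 1.54 (SE 0.41) at day 14. All 7 delayed libraries of day 14 lay above the highest of day 5, a fitted difference of 4.24 (SE 0.77). The summed SC markers moved along with it: their median was 393 CPM in delayed and 844 CPM in immediate libraries of day 5, and 2879 and 1103 CPM at day 14. Immediate replicate 1 of day 5 had the highest sum of SC markers (1593 CPM) and of fibroblast markers (9445 CPM) of that day. Over 31 SC libraries, residuals of Serpina3n had r = 0.59 with SC markers and 0.53 with fibroblast markers. The methods place Thy1, as a fibroblast marker, among those gated out of the sort. The part of cell makeup in the levels of Serpina3n was not tested.

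Hp, S100a8, S100a9 and Ptx3 were not called between repair groups in SC where they were tested. Ptx3 at day 5 and S100a8 and S100a9 at day 14 did not pass the filter and were not tested. Hp at day 5 ranged from 0 to 54.0 CPM after delayed and from 0 to 45.3 CPM after immediate repair, with medians of 5.60 and 7.57 CPM, and differed by 0.25 (SE 1.07, adjusted p = 0.999). At day 14 Hp had medians of 16.2 and 32.5 CPM, and its difference of -1.49 (SE 0.93, adjusted p = 0.998) became 0.035 without the 2 libraries rich in Ngp. S100a8 at day 5 had medians of 7.72 and 2.14 CPM (difference 1.34, SE 0.88, adjusted p = 0.924) and S100a9 of 6.37 and 5.02 CPM (1.42, SE 1.15, adjusted p = 0.937). Ptx3 was at 0 in 5 of 9 delayed and 3 of 7 immediate libraries of day 5, with single libraries at 141 and 135 CPM. At day 14 it was above 0 in 14 of 15 libraries, with medians of 16.5 and 16.2 CPM and a difference of -0.14 (SE 0.97, adjusted p = 0.998), or 0.023 without the 2 libraries. Residuals of Hp in SC had r = 0.67 with macrophage markers and were most like those of Slfn4 (0.83).

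No member was called between delayed and immediate macrophages on either day. At day 5, 0 of 4 members tested were called, against 0.0357% of 8409 genes, with 430 genes at an unadjusted p under 0.05 and 17 called by DESeq2. The differences were -0.12 for Hp (SE 0.47), -0.28 for S100a8 (SE 0.47), 0.045 for S100a9 (SE 0.50) and -0.63 for Saa3 (SE 0.57). At day 14, 0 of 3 were called, against 0% of 8589 genes, with 189 at an unadjusted p under 0.05. The differences were -0.35 for Hp (SE 0.46), -0.36 for S100a8 (SE 0.31) and -0.83 for Saa3 (SE 0.93). The repair by day interaction in macrophages was at most 0.23 in size for the 4 members tested, each with a larger standard error, against 0.0223% of 8949 genes called. Of the regulators listed, Osm, the cytokine oncostatin M, was the only one called at day 5 between repair groups (-0.89, SE 0.15, adjusted p = 0.0324, edgeR; 0.0238% of all genes were lower).

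In macrophages, 4 members were low in nearly every library. Lcn2 ranged from 0 to 6.19 CPM over all 32 libraries and Orm1 from 0 to 1.53 CPM, with 19 libraries at 0. Serpina3n was at most 2.79 CPM. Ptx3 was at most 6.77 CPM except in immediate day 5 replicate 4, at 73.5 CPM, and delayed day 5 replicate 8, at 18.4 CPM. These 2 libraries had the highest Col1a1, a collagen gene of fibroblasts, in their groups, at 30.4 and 126 CPM. The macrophage library with the highest Col1a1 of all, immediate day 14 replicate 7 at 342 CPM, had 2.16 CPM of Ptx3. The part of fibroblast RNA in these values was not tested.

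The distal stump held all members at day 5, and Saa3 alone was called between repair groups. Of 6 members tested, 1 was called, against 26.3% of 12229 genes. Saa3 was 19.7 to 59.9 CPM after delayed repair (median 44.9 CPM) and 30.4 to 312 CPM after immediate repair (median 57.9 CPM), so the groups overlapped, with immediate replicates 4 and 2 far above the others at 312 and 179 CPM. The difference was -1.33 (SE 0.44, adjusted p = 0.0339, edgeR). Without immediate replicate 4 it was -0.73 (adjusted p = 0.136) and without immediate replicate 2 it was -1.16 (adjusted p = 0.0856). Leaving out delayed replicate 4, 6, 8 or 9 also lost the call, with differences of -1.29 to -1.25 (adjusted p up to 0.0578). The call was lost too with sex as a covariate (-1.06, adjusted p = 0.0605), with limma-voom (-0.98, adjusted p = 0.083) and with no filter (-1.38, adjusted p = 0.0748). With the replicate number as a block it was also lost (-0.88, adjusted p = 0.188). The summed macrophage markers were 3128 to 5383 CPM after delayed and 1463 to 4776 CPM after immediate repair, and their part in the result was not tested.

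Hp was the most abundant member in the stump, with 176 to 816 CPM after delayed repair (median 293 CPM) and 108 to 1422 CPM after immediate repair (median 182 CPM). Immediate replicate 4 held the 1422 CPM and the next was 258 CPM. The difference of 0.22 (SE 0.55, adjusted p = 0.801) became 1.30 without that library (adjusted p = 0.0173), which was then called, and 8 of 9 delayed libraries lay above the immediate median. Replicate 4 of the immediate group was also the highest of its group for Saa3, Lcn2 (15.4 CPM) and Serpina3n (155 CPM), and had 770 CPM of 8 adipocyte markers, where the other 6 immediate libraries had 74.2 to 307 CPM. In the delayed group the sum was 63.4 to 1444 CPM. Over 16 stump libraries, the residuals of Serpina3n had r = 0.85 and those of Hp 0.71 with the summed adipocyte markers, and Hp and Serpina3n had r = 0.84 with each other. With the summed macrophage markers r was 0.72 for Serpina3n and 0.60 for Hp, and with dendritic cell markers 0.73 and 0.56. The part of these cell types in the levels was not tested.

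**Figure D5:**
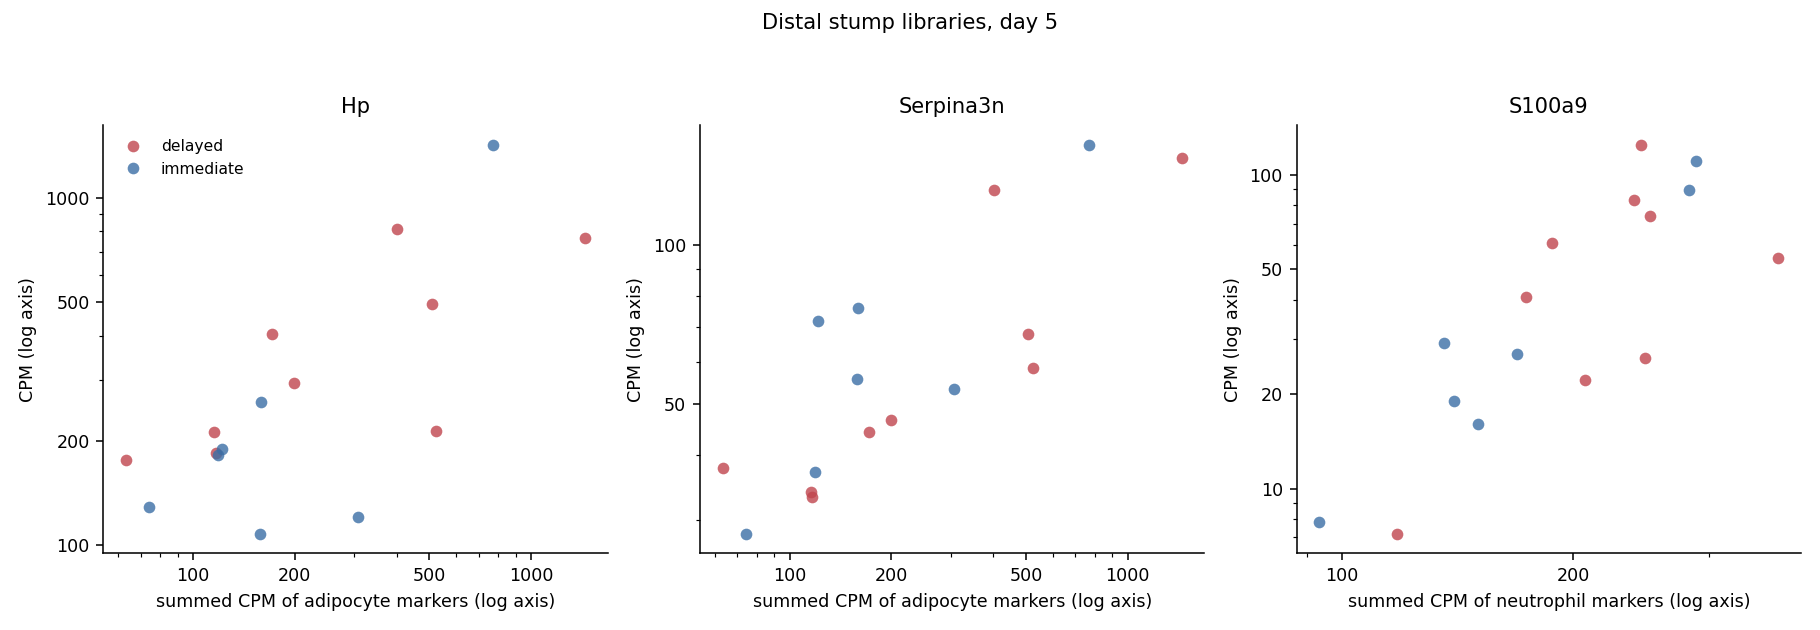
Hp and Serpina3n against the summed level of adipocyte markers, and S100a9 against the summed level of neutrophil markers, in CPM on log axes, in each distal stump library of day 5. Immediate replicate 4, at 770 CPM of adipocyte markers, is the highest library for Hp (1422 CPM) and Serpina3n (155 CPM).

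S100a8 and S100a9 moved as a pair in the stump. S100a9 was 7.19 to 125 CPM after delayed repair (median 54.2 CPM) and 7.85 to 111 CPM after immediate repair (median 27.0 CPM), and the differences were 0.36 for S100a9 (SE 0.54, adjusted p = 0.663) and 0.22 for S100a8 (SE 0.58, adjusted p = 0.809). Their residuals had r = 0.97, and the next gene for both was Srgn, the granule proteoglycan serglycin (0.95). With the summed neutrophil markers they had r = 0.81 and 0.79. Ngp was at most 3.33 CPM in the stump. Ptx3 was 11.1 to 162 CPM after delayed and 19.8 to 137 CPM after immediate repair, with a difference of 0.32 (SE 0.50, adjusted p = 0.674), and its residuals had r = 0.75 with fibroblast markers and -0.77 with SC markers. With dendritic cell, neutrophil, T and B cell and macrophage markers their r was 0.68, 0.67, 0.64 and 0.61. Serpina3n had medians of 46.6 and 55.7 CPM and a difference of -0.013 (SE 0.38, adjusted p = 0.984). Lcn2 was 0.874 to 15.4 CPM and Orm1 0 to 3.28 CPM over all 16 libraries, and neither was tested.

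Other genes of these pathways were also compared between delayed and immediate stumps, where 26.3% of all genes were called. Of 48 other acute phase genes, 16 were tested, and 3 fell and 0 rose, against 13.5% and 12.8% of all genes. Those that fell were A2m, a protease inhibitor (-3.57, SE 0.48, adjusted p = 5.87e-05), Trf, transferrin (-0.86, SE 0.23, adjusted p = 0.0118), and Lbp, which carries lipopolysaccharide (-0.80, SE 0.26, adjusted p = 0.0287). Of 30 other S100 and alarmin genes, 22 were tested, and 10 fell and 1 rose, against 13.5% and 12.8% of all genes. The largest fall was S100b, a calcium-binding protein of SC (-4.86, SE 0.42, adjusted p = 8.87e-07), followed by Lgals3, galectin 3 (-1.87, SE 0.29, adjusted p = 0.000207), and S100a11 rose (0.36, SE 0.12, adjusted p = 0.0348, edgeR). The summed SC markers were 179 to 986 CPM after delayed and 1565 to 3598 CPM after immediate repair, without overlap. Of 29 receptors and binding partners, 24 were tested, and 5 rose and 0 fell, against 12.8% and 13.5% of all genes. Tlr2 was among those that rose (0.72, SE 0.20, adjusted p = 0.0146). Of 45 inducers and regulators, 37 were tested, and 11 rose and 2 fell, against the same 12.8% and 13.5%. Among those that rose were Il1r1 (0.80, SE 0.13, adjusted p = 0.000365) and Jak2 (0.61, SE 0.12, adjusted p = 0.0013). The 2 that fell were Lif (-0.94, SE 0.18, adjusted p = 0.00105) and Il1rap (-0.66, SE 0.19, adjusted p = 0.0195). Markers of other cells also rose in delayed stumps: 8 of 9 endothelial markers, whose sum was 1210 to 1845 CPM after delayed and 753 to 1063 CPM after immediate repair, 5 of 8 mural, 4 of 10 dendritic cell and 2 of 13 macrophage markers, against 12.8% of all genes. Of the mural markers 1 fell. The part of cell makeup in these differences was not tested.

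Receptors of the members were mostly lower in SC than in macrophages. Of 29 receptors and binding partners, 19 of 23 tested were lower at day 5 and 19 of 24 at day 14, where 29.7% and 27.6% of all genes were lower. The list includes Cd14 and Itgam, the gene of CD11b. Macrophages were sorted as positive and SC as negative for both proteins, so the direction of these genes was set by the sort. The SC fraction also held dendritic cell markers, and their part in these counts was not tested. Lrp1, an endocytic receptor, differed by -2.55 at day 5 (SE 0.20, adjusted p = 4.37e-13), and Ly96, the partner of Tlr4, by -1.79 (SE 0.15, adjusted p = 8.9e-13). Of 45 inducers and regulators, 39 were tested at day 5, and 11 were higher and 19 lower in SC, against 35.6% and 29.7% of all genes. Cebpb, a C/EBP factor, was lower (-3.31, SE 0.34, adjusted p = 3.5e-10) and Stat3 higher (1.50, SE 0.13, adjusted p = 2.86e-12, edgeR). Slc22a17, a receptor of Lcn2, went the other way, 4.74 higher in SC at day 14 (SE 0.53, adjusted p = 2.9e-09, where 37.1% of all genes were higher), and it rose between day 5 and day 14 in delayed SC (4.05, SE 0.99, adjusted p = 0.0232, edgeR), where 3.33% of all genes rose. In the same comparison 6 of 13 SC markers rose, with a median of 2.41 over the 13, and their part in the rise was not tested.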

How the data were processed

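RNA was measured by sequencing in macrophages, SC and distal stump. The submitters' processing notes name cutadapt 1.8, TopHat2 2.1.1, Cufflinks 2.2.1, Cuffnorm and mm10. The authors deposited estimated counts per gene in 1 table per cell or tissue type, of which 0.951% to 1.18% of values were not whole, and the program that wrote them is not given in the sources used here. Values were rounded. No 2 libraries held identical counts.

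The members and gene lists were chosen with earlier results of these data known. CPM used the library's total count. Contrasts were tested with edgeR 4.0.16 (R 4.3.3; quasi-likelihood, robust, TMM scaling) on genes that reached 5 CPM in 6 or more libraries of the comparison, with Benjamini-Hochberg adjustment over all genes tested and a threshold of 0.05, and the code was tested on simulated data. Only libraries of the groups compared entered a fit. Alternatives were DESeq2 1.42.0, limma 3.58.1 (voom), library size scaling, filterByExpr, no filter, sex as a covariate, replicate or animal as a block, and each library left out.

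Named genes were the 8 members; up to 4 genes of each list with the smallest p per direction of a contrast; markers that moved with a member; and the 3 genes with the highest Pearson's r of log2(CPM + 1) after removal of group means, among genes with a mean of at least 5 CPM. Macrophages and SC of 1 animal are paired by source: the correlation of their deviations from group means had a median of 0.111 over 16 pairs at day 5 (lowest -0.0203) and 0.106 over 15 pairs at day 14 (lowest 0.0557). Reads shared with close relatives of Saa3, Orm1 and Serpina3n could have been split between genes, and how was not given. Promoters of 6 members were matched by symbol in RefSeq (GRCm38.p6). Intervals and limits cover counting error only.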

Additional observations from a re-analysis of the deposited data

Results flagged for a closer look

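Within groups of 4 to 10 libraries, 12 of 77 sets of member values had 1 library whose distance to the nearest other on the log2(CPM + 1) scale, divided by the range, passed Dixon's critical value, which about 1 in 20 sets pass by chance. In the distal stump, Hp was at 1422 CPM in immediate replicate 4. In SC of day 5, Serpina3n was at 159 CPM in immediate replicate 1, S100a8 at 26.3 CPM in immediate replicate 8 and Orm1 at 0.0845 CPM in immediate replicate 2. The Orm1 value was 2 counts with the other 6 libraries at 0, where any count would pass, so that flag carries no information. In SC of day 14, delayed replicate 8 was the highest for both S100a9, at 31.3 CPM, and Lcn2, at 2.54 CPM. In macrophages of day 5, immediate replicate 4 was the highest for Ptx3, at 73.5 CPM, and for Serpina3n, at 2.79 CPM. Delayed replicate 8 of the same day had 18.4 CPM of Ptx3. Saa3 was lowest in delayed replicate 5 of day 5, at 82.2 CPM, and Orm1 was at 0.519 CPM in immediate replicate 1. In macrophages of day 14, Serpina3n was at 2.65 CPM in delayed replicate 4.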

How the results depend on the processing

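DESeq2 called 17, 14 and 3 genes for the delay in macrophages of day 5, SC of day 5 and SC of day 14, where edgeR called 3, 0 and 0, and it called 891, 950 and 1514 for the day in delayed macrophages, immediate SC and delayed SC, where edgeR called 540, 393 and 806. In the interactions DESeq2 called 9 genes for repair and day in macrophages, 9 in SC, 21 for repair and cell type at day 5 and 3 at day 14, where edgeR called 2, 0, 2 and 0. With limma-voom the counts were 1 for the delay in macrophages of day 5, 1015 and 611 for the day in delayed macrophages and immediate SC, and 0 for repair and cell type at day 5. Sex as a covariate gave 7 for the delay in macrophages of day 5 and 1 in SC of day 5. Library size scaling gave 1474 for the day in immediate macrophages (959 with TMM), 0 for repair and day in macrophages and 1 for repair and cell type at day 5. It moved the median of all genes by over 0.1 in several contrasts, to 0.17 for the day in immediate macrophages, and to 0.30 and 0.48 for SC against macrophages at day 5 and day 14. Under it the genes higher and lower on day 14 were 1195 and 279 in immediate macrophages (450 and 509 with TMM), 334 and 188 in delayed macrophages (278 and 262), 152 and 198 in immediate SC (75 and 318) and 695 and 288 in delayed SC (332 and 474). Those higher and lower in SC than in macrophages were 4474 and 2084 at day 5 (3593 and 2995) and 5767 and 1760 at day 14 (3932 and 2922).

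Members called also varied. In the stump, no filter, sex, limma-voom and the replicate block each gave 0 in place of 1. For the day in immediate macrophages DESeq2 gave 3 and no filter and limma-voom gave 1 in place of 2, and in delayed macrophages DESeq2 and no filter gave 3 and the block 2 in place of 1. In delayed macrophages the calls of DESeq2 were S100a8, Hp and Saa3. With no filter Hp and Saa3 stayed uncalled there, and the calls beside S100a8 were of members too low to pass the filter. With Serpina3n left out for its choice by these values, DESeq2 gave 1 in place of 0 for the day in delayed SC and for repair and day in SC.

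In no contrast of repair or day did every pair of same-numbered libraries correlate above 0.1, the condition for pairing, although in delayed and immediate macrophages 7 of 8 pairs did at day 5 (median 0.280) and 6 of 7 at day 14 (median 0.279). With the replicate number as a block, 11 genes were called for the delay in macrophages of day 5, 199 and 239 for the day in immediate and delayed SC, 1 for repair and day in macrophages, 1 in SC and, with the animal as a block, 0 for repair and cell type at day 5. With the block, Saa3 was at -0.88 in the stump (adjusted p = 0.188), and between days it was called in immediate (-2.69, adjusted p = 0.0436) and delayed macrophages (-3.12, adjusted p = 0.0224), while Hp in immediate macrophages was not (adjusted p = 0.143). Signs turned with the block for Hp in SC of day 5 (-0.58), for the day in immediate SC in Serpina3n (0.16) and S100a9 (-1.97), for SC against macrophages in S100a9 (-0.19) and Ptx3 (-1.48) at day 5 and Hp (-0.60) and S100a8 (-1.71) at day 14, for repair and day in S100a9 of macrophages (-0.25), and for repair and cell type at day 5 in Ptx3 (-1.69). No called member turned, and blocking by animal changed no member's call in SC against macrophages.

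With limma-voom the values turned for the day in immediate SC in Serpina3n (0.61; 0.84 with DESeq2) and S100a9 (-3.38), for SC against macrophages in S100a9 (-0.11) and Ptx3 (-1.62) at day 5 and Hp (-0.60) and S100a8 (-1.75) at day 14, for repair and day in S100a9 of macrophages (-1.08), S100a9 of SC (0.73) and Ptx3 of SC (-2.40), and for repair and cell type at day 5 in S100a9 (-0.047). With sex as a covariate they turned for the delay in S100a9 of macrophages at day 5 (-0.080), Hp of SC at day 5 (-0.23) and Ptx3 of SC at day 14 (0.047), for Hp in SC against macrophages at day 14 (-0.031) and for repair and day in Ptx3 of SC (-0.42). Without the 2 SC libraries rich in Ngp, chosen after seeing the data, they turned for the delay in SC of day 14 in Hp (0.035) and Ptx3 (0.023), for SC against macrophages at day 14 in Hp (-0.74) and S100a8 (-0.96), for repair and day in S100a9 of SC (1.61), and for repair and cell type at day 14 in Hp (0.38) and S100a8 (0.24).

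Leaving out each library in turn gave 1 to 4 called genes for the delay in macrophages of day 5, 0 to 1 in SC of day 5, 217 to 650 for the day in immediate SC and 361 to 1175 in delayed SC. Members called were 0 to 1 in the stump, 1 to 3 and 0 to 2 for the day in immediate and delayed macrophages, and 0 to 1 in delayed SC without Serpina3n. Values crossed 0 for the delay in Hp (-0.27 to 0.026), S100a8 (-0.54 to 0.044) and S100a9 (-0.11 to 0.19) of macrophages at day 5, Hp of SC at day 5 (-0.23 to 0.78), Ptx3 of SC at day 14 (-0.85 to 0.45) and Serpina3n (-0.25 to 0.33) and S100a8 (-0.14 to 0.67) of the stump. They crossed 0 for the day in Serpina3n (-1.17 to 0.93) and Ptx3 (-0.37 to 2.86) of immediate SC and Hp (-0.22 to 1.09) and Ptx3 (-0.38 to 2.82) of delayed SC, and for Hp in SC against macrophages at day 14 (-0.61 to 0.33, and -0.31 without both libraries of delayed animal 4). The causes of these changes were not tested. In macrophages many libraries held few or no counts of Orm1 and Serpina3n, with 19 and 15 of 32 at 0, so their values there rest on few counts.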
